A study of Mus musculus with 16 samples.

Results

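Adult limb muscle of the mouse makes 4 myosin heavy chains: Myh4, Myh1, Myh2 and Myh7. All 4 were chosen by name, and all 4 were present among the 17370 genes of the deposited table and passed the filter on low counts. The libraries came from quadriceps, the knee extensor of the thigh, of mice whose anterior cruciate ligament (ACL) had been cut. For 7 days after the cut the mice received an inhibitor of CSF1-R, the receptor on which macrophages depend, at 40 mg/kg, or 0.5% sucrose as placebo. The 16 libraries formed 4 groups of 4: healthy quadriceps with placebo, injured quadriceps with placebo, healthy quadriceps with inhibitor and injured quadriceps with inhibitor. Strain, age and sex are not given in the sources used here, and no transgene is named. The library names join each healthy quadriceps, marked L, to an injured one, marked R, by the first part of the name. Such a couple is treated here as the 2 limbs of 1 animal (8 animals), although the submitters' design text describes muscle before and after surgery. On that reading the healthy limb belongs to a mouse with a cut ligament in the other knee, and no uninjured mouse is among the libraries.

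A myosin heavy chain is the motor protein of the thick filament, and the isoform a fibre makes largely sets how fast it shortens. Myh4 encodes the fastest chain, of type IIB fibres, Myh1 that of type IIX and Myh2 that of type IIA, which is fast but rich in mitochondria. Myh7 encodes the slow chain of type I fibres and is also the main chain of the heart ventricle in large mammals. Neighbouring types form a series, IIB to IIX to IIA to I, along which fibres can shift with use, nerve supply and hormones. The mouse quadriceps is mostly fast muscle, with type I and IIA fibres kept largely to its deep part.

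The fast genes lie side by side on mouse chromosome 11 (build GRCm38, plus strand): Myh2 at chr11:67171027-67197517, Myh1 at chr11:67200052-67224575 and Myh4 at chr11:67238029-67260446. Only 2.53 kb separate Myh2 from Myh1, and 13.5 kb separate Myh1 from Myh4. Myh7 lies apart from them, at chr14:54970684-54994626 on the minus strand. The deposited values are per gene, not per exon or isoform. Across the 16 libraries Myh1 and Myh2 varied together (Pearson's r 0.93), and Myh4 ran against both (r -0.54 and -0.685). Myh7 followed Myh1 and Myh2 less closely (r 0.322 and 0.527). The 250 bases just before the start of each gene are printed as a description, and any link to these levels was not tested. They come from RefSeq (GRCm38.p6) and run 5′ to 3′ on the gene's own strand, at chr11:67170777-67171026 for Myh2, chr11:67199852-67200101 for Myh1, chr11:67237562-67237811 for Myh4 and chr14:54994627-54994876 for Myh7. Capitals mark the 20 bases that the 3 fast genes share.
Myh2: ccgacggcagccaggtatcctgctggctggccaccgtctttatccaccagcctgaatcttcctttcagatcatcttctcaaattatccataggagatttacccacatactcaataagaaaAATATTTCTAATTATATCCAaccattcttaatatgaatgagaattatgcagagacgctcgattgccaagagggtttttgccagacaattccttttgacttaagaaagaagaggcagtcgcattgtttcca
Myh1: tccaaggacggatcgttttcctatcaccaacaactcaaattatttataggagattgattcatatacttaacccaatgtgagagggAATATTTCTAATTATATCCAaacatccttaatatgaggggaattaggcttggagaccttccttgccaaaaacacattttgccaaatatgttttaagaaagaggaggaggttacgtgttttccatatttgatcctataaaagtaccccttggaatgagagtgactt
Myh4: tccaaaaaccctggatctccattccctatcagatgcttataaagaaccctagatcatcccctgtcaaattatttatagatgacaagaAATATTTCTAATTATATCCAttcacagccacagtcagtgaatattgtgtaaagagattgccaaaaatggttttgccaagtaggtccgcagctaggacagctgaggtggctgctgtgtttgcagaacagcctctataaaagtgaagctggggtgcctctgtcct
Myh7: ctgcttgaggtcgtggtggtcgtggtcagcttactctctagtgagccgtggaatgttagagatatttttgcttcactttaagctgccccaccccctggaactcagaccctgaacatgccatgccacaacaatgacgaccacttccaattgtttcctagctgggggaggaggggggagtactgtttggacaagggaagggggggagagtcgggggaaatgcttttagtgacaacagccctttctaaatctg
The shared run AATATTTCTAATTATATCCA began 130 bases before the start of Myh2, 165 before that of Myh1 and 163 before that of Myh4. Among 32851 such windows of RefSeq genes, searched on both strands, 3 held it (0.00913%), those of Myh1, Myh2 and Myh4. The window of Myh7 did not hold it, and its longest run in common with a fast gene was 9 bases, with Myh2. TATAAAA, the letters of a TATA box, stood 32 bases before the start in Myh1 and 31 in Myh4, was not among the letters of the Myh2 and Myh7 windows, and occurred in 4.98% of all windows. CATTCC, the core letters bound by TEAD factors, occurred once each in Myh1, Myh4 and Myh7 and in 12.6% of all windows. CANNTG, the E-box letters bound by myogenic factors, occurred 2 times in Myh4 and 1 time in Myh7, against 66.2% of windows with at least 1. None of these matches overlapped another in the same window. For Myh1 and Myh4 the RefSeq start lies 50 and 217 bases from the GENCODE start, so the windows depend on the annotation. A match of letters is a description and not a site of binding.

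Close relatedness limits how well reads can be assigned. Coding sequences of Myh1 and Myh2 were identical at 91.1% of aligned bases, Myh1 and Myh4 at 90.2%, and Myh7 and the heart gene Myh6 at 91.7%. Of all 100-base windows of coding sequence, 3.99% in Myh4, 10.1% in Myh1, 9.57% in Myh2 and 12.04% in Myh7 occurred unchanged in another sarcomeric myosin. For 150-base windows these shares were 0.529%, 2.61%, 2.15% and 5.83%. For 50-base windows they were 19.6%, 27.9%, 28.1% and 23.9%. The read length is not given in the sources used here, so the part of the reads that the counting had to divide between relatives, and with it the uncertainty of the split between Myh1, Myh2 and Myh4, is not known. Myh6, the relative that shares 100-base windows with Myh7, stayed between 1.1 and 6.35 CPM in all 16 libraries.

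Library totals were 20.12 to 27.13 M (mega) counts, and levels are given as CPM, the counts scaled to a common library total. A floor of 3 counts equalled 0.111 to 0.149 CPM, and the smallest value of any member was 144 counts, so counting error is small beside the spread between libraries. Mitochondrially encoded genes took 10.69 to 18.98% of the counts. The muscle markers Acta1, Ckm, Ttn, Des, Mb and Tnnc2 summed to 61900 to 81900 CPM. Of the 5 heart markers, Nppa, Nppb and Myl7 were not among the genes of the table. The 2 that were present, Myh6 and Myl4, summed to 6.13 to 62.3 CPM in injured placebo quadriceps and to 3.92 to 10.2 CPM in the other groups. Myh6 alone was 1.1 to 4.53 CPM in injured placebo quadriceps, so the highest sums there were mostly Myl4. They are not read here as a sign of heart muscle. At an unadjusted p under 0.05 (edgeR), 1 of the 2 was higher for injury with placebo, against 7.24% of all genes in either direction. Neither passed adjustment, as no gene of the table did. Prg4, the lubricin gene of joint lining, set 4 libraries apart: injured placebo 3 (318 CPM), healthy placebo 4 (264), injured placebo 2 (257) and healthy inhibitor 1 (168), against 3.76 to 17.8 CPM in the other 12. Results of the 4 members are therefore also given without those 4 libraries where they moved. For single genes other than the members, differences without those libraries were not examined. In bulk muscle, fewer fibres of a type and less RNA per fibre cannot be told apart.

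Myosin RNA was dominated by Myh4 in every library. The 4 genes together took 4.32 to 7.84% of all counts of a library (median 5.94%). Per kilobase of exon, Myh4 stood above Myh1 in 16 of 16 libraries, by 4.92 to 19.3 times (median 10.5). Myh1 stood above Myh2 in 16 of 16, by 1.61 to 3.56 times (median 2.34). Myh2 stood above Myh7 in 15 of 16, and injured placebo 3 was the exception, with Myh2 at 0.873 times Myh7. Over all 16 libraries the per-kilobase ranges of Myh4 and Myh1 did not overlap, while those of Myh1 and Myh2, and of Myh2 and Myh7, did. The order Myh4, Myh1, Myh2, Myh7 thus held within nearly every library, although neighbours below Myh4 overlapped between libraries.

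Variation between libraries grew in the opposite order. The highest library exceeded the lowest by 2.24 times for Myh4, 2.65 times for Myh1 and 3.71 times for Myh2, but by 316 times for Myh7. The coefficient of variation over the 16 libraries was 22.1% for Myh4, 31.7% for Myh1, 51.3% for Myh2 and 93.4% for Myh7. Within single groups Myh7 varied by 29.4 to 241 times, so its spread was not one between groups. The plot of CPM per library shows these spreads and the limb pairs.

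**Figure D1:**
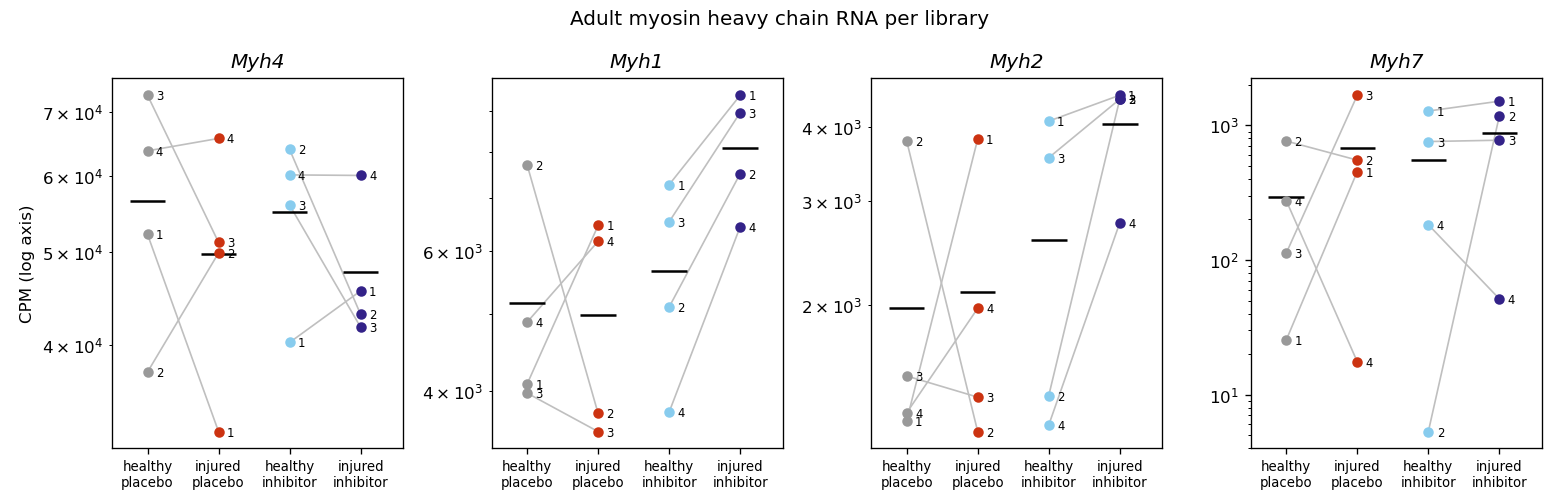
CPM (log axis) of Myh4, Myh1, Myh2 and Myh7 in each library of the 4 groups; points carry replicate numbers, black bars are group means and grey lines join the limbs of 1 animal. All 4 inhibitor-treated animals have more Myh1 and Myh2 in the injured limb, a pattern that was not counted over all genes. Myh7 runs from 5.31 to 1676 CPM with no group set apart.

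Myh4, the type IIB chain, reached 52146, 37483, 72793 and 63705 CPM in healthy placebo quadriceps (replicates 1 to 4). In injured placebo quadriceps it stood at 32495, 49867, 51155 and 65629 CPM. With the inhibitor it was 40238, 63913, 55935 and 60134 CPM in healthy and 45534, 43034, 41736 and 60055 CPM in injured quadriceps. The groups overlapped in every comparison, with the lowest value of all in injured placebo 1 and the highest in healthy placebo 3. Group means ± SD (n = 4 each) were 56532 ± 15253, 49786 ± 13563, 55055 ± 10402 and 47590 ± 8459 CPM in the same order.

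Myh1, the type IIX chain, measured 4079, 7704, 3975 and 4882 CPM in healthy placebo quadriceps. Injured placebo quadriceps held 6461, 3747, 3556 and 6171 CPM of it. With the inhibitor the values were 7271, 5101, 6530 and 3763 CPM in healthy and 9422, 7507, 8960 and 6438 CPM in injured quadriceps. The injured inhibitor group was the highest, and its lowest library (6438 CPM) fell just under the highest injured placebo library (6461 CPM). Means ± SD were 5160 ± 1744, 4984 ± 1545, 5666 ± 1556 and 8082 ± 1366 CPM (n = 4 each).

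Myh2, the type IIA chain, stood at 1272, 3793, 1515 and 1312 CPM in healthy placebo quadriceps. In injured placebo quadriceps it was 3818, 1220, 1395 and 1973 CPM. Inhibitor-treated animals had 4096, 1404, 3551 and 1251 CPM in the healthy and 4531, 4465, 4462 and 2755 CPM in the injured limb. Values lay either from 1220 to 1973 CPM or from 2755 to 4531 CPM, and each group but injured inhibitor held both low and high libraries. Means ± SD were 1973 ± 1218, 2102 ± 1189, 2575 ± 1459 and 4053 ± 866 CPM (n = 4 each).

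Myh7, the slow chain, was 25.4, 765, 112 and 277 CPM in healthy placebo quadriceps. The injured placebo libraries gave 454, 552, 1676 and 17.5 CPM. Healthy inhibitor quadriceps gave 1279, 5.31, 759 and 183 CPM, and injured inhibitor quadriceps 1514, 1178, 776 and 51.4 CPM. No group was uniformly high or low, and all 4 overlapped widely. Means ± SD were 295 ± 330, 675 ± 707, 557 ± 579 and 880 ± 629 CPM (n = 4 each), so the SD exceeded the mean in 3 of the 4 groups.

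As a share of the summed counts of the 4 genes, Myh4 took 90.7, 75.4, 92.9 and 90.8% in healthy placebo quadriceps. Injured placebo quadriceps gave 75.2, 90.0, 88.5 and 88.9%. With the inhibitor the share was 76.1, 90.8, 83.8 and 92.0% in healthy and 74.6, 76.6, 74.6 and 86.7% in injured quadriceps. Each of the first 3 groups thus held 1 library between 75.2 and 76.1%, whereas 3 of the 4 injured inhibitor libraries lay between 74.6 and 76.6%. Libraries that overlapped between groups in CPM, as those of all 4 members did, were the rule: only 1.99% of tested genes had non-overlapping CPM for injury with placebo, 2.27% for injury with inhibitor, 6.42% for the inhibitor in injured and 2.3% for the inhibitor in healthy quadriceps. The mean share ± SD was 87.4 ± 8.10%, 85.7 ± 7.03%, 85.7 ± 7.35% and 78.1 ± 5.76% (n = 4 each). Myh1 made up 5.07 to 16.02% over all libraries, Myh2 1.87 to 8.83% and Myh7 0.00754 to 2.90%. Shares of one whole are not independent, since a lower Myh4 share raises the others.

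**Figure D2:**
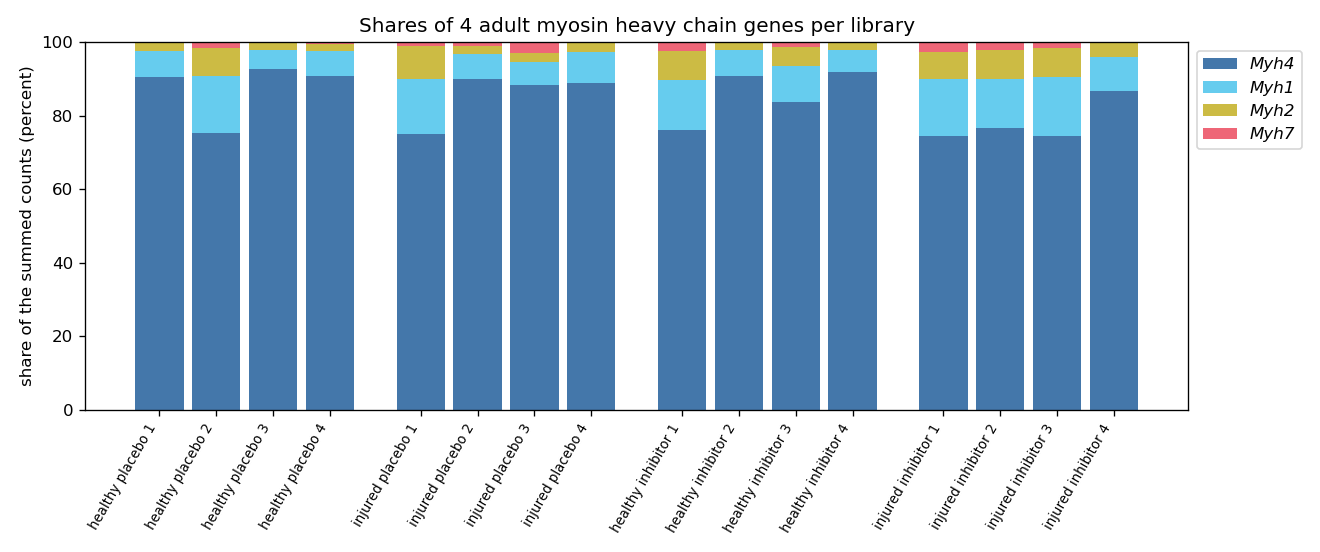
Stacked bars give the percent of the summed counts of Myh4, Myh1, Myh2 and Myh7 in each of the 16 libraries. Myh4 fills 74.6 to 92.9% of each bar, and 3 of the 4 injured inhibitor libraries have a Myh4 share of at most 76.6%.

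The first comparison asks how the quadriceps differs after ligament injury. In placebo-treated mice no member differed beyond the spread between libraries. The log2 difference (injured minus healthy, ± standard error) was -0.32 ± 0.25 for Myh4, -0.16 ± 0.27 for Myh1, -0.03 ± 0.48 for Myh2 and 1.04 ± 1.43 for Myh7, with adjusted p of 0.702, 0.861, 0.989 and 0.836 (edgeR quasi-likelihood test, Benjamini-Hochberg over 15411 genes). That test called 0 genes of the whole table (0.0%) in this comparison. At an unadjusted p under 0.05 it passed 1116 genes (7.24%), none of them a member, and DESeq2 called 2 genes (0.013%). The Myh4 share differed by a mean of -1.74 percentage points (exact permutation p = 0.457, two-sided, adjusted p = 0.726 over 24 share comparisons). Without the 4 libraries high in Prg4 the differences of Myh1, Myh2 and Myh7 changed sign, to 0.18, 0.30 and -0.48 on the log2 scale.

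With the inhibitor, injured minus healthy was -0.24 ± 0.25 for Myh4, 0.50 ± 0.27 for Myh1, 0.65 ± 0.48 for Myh2 and 0.68 ± 1.43 for Myh7 on the log2 scale. None passed (adjusted p = 0.9999 for each, edgeR). In 4 of 4 animals both Myh1 and Myh2 had a higher level in the injured than in the healthy limb, while the Myh2 share was higher in 3 of 4. How many of all genes were higher in 4 of 4 animals was not counted, so this is a description. In this comparison edgeR called 0 genes (0.0%), passed 202 (1.31%) at an unadjusted p under 0.05, and DESeq2 called 1 (0.00649%). In 4 of 4 animals Myh4 also held a lower share after injury, with a mean difference of -7.54 points (exact permutation p = 0.2, adjusted p = 0.581), and the smallest p that 4 against 4 allows is 0.0286.

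Over both treatments the limb pairs leaned one way without passing a test. The smallest exact sign-flip permutation p that 8 pairs allow is 0.00781. Adjusted over 24 share comparisons, a single comparison at that p could not pass alone, so a missed threshold says little here. In 7 of 8 animals Myh4 had a lower share after injury, and placebo 2 was the exception, going from 75.4% in the healthy to 90.0% in the injured limb. Shares were higher after injury in 7 of 8 animals for Myh1, in 6 of 8 for Myh2 and in 5 of 8 for Myh7. The mean change of share was -4.64 points for Myh4 (exact sign-flip permutation p = 0.188), 2.40 for Myh1 (p = 0.211), 1.61 for Myh2 (p = 0.242) and 0.63 for Myh7 (p = 0.227), each with an adjusted p of 0.581. In CPM, Myh4 was lower after injury in 5 of 8 animals. The edgeR log2 differences were -0.28 ± 0.17 for Myh4, 0.17 ± 0.19 for Myh1, 0.31 ± 0.34 for Myh2 and 0.86 ± 1.01 for Myh7 (adjusted p 0.819 to 0.867). EdgeR called 0 genes (0.0%) and passed 757 (4.91%) at an unadjusted p under 0.05, while DESeq2 called 0. Without the libraries high in Prg4, only 4 animals kept both limbs, namely placebo 1 and inhibitor 2, 3 and 4. The mean change of the Myh4 share among them was -11.0 points (exact sign-flip permutation p = 0.125, the smallest 4 pairs allow). This exclusion was added after seeing the data. It removed placebo 2 (14.7 points), the only animal with a higher Myh4 share after injury, so the larger mean depends on which animals were kept.

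Within single animals, as joined by library name, Myh7 differed widely between the muscle pieces of the 2 limbs. The part that the make-up of each piece plays in this was not tested. In inhibitor 2, Myh7 was 5.31 CPM in the healthy and 1178 CPM in the injured limb, a ratio of 222. In placebo 1 it was 17.9 times and in placebo 3 14.9 times as high in the injured limb, and in placebo 4 it was 15.8 times as high in the healthy limb. Myh2 in the injured limb was 3.18 times its healthy level in inhibitor 2 and 3.00 times in placebo 1, but 0.322 times in placebo 2. The mean absolute log2 difference between limbs was 0.35 for Myh4, 0.55 for Myh1, 0.90 for Myh2 and 2.80 for Myh7.

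Between the limbs of an animal the levels were only loosely related. Over 8 animals Pearson's r of log2 CPM in the healthy and injured limb was 0.243 for Myh4 (rho 0.333), 0.21 for Myh1 (rho 0.357), 0.0596 for Myh2 (rho 0.143) and -0.0955 for Myh7 (rho 0.0238). None passed (exact permutation p 0.559 to 0.877 for r and 0.389 to 0.977 for rho; adjusted over 4 relations 0.877 for r). Leaving out the 2 animals farthest from the median gave r of 0.597, 0.675, 0.368 and 0.346.

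The inhibitor was compared with placebo separately in injured and in healthy quadriceps. In injured quadriceps, Myh1 and Myh2 had the highest levels with the inhibitor, but neither passed the adjusted test. The log2 difference (inhibitor minus placebo) was 0.81 ± 0.27 for Myh1 (adjusted p = 0.229, edgeR) and 1.07 ± 0.49 for Myh2 (adjusted p = 0.328, edgeR). Myh4 differed by 0.05 ± 0.25 and Myh7 by 0.58 ± 1.42 (adjusted p 0.947 and 0.890, edgeR). EdgeR called 0 genes (0.0%) here and passed 2289 genes (14.9%) at an unadjusted p under 0.05, of which 897 (5.82%) were higher with the inhibitor. Of the 4 members 2 were among those 897. DESeq2 called 248 genes (1.61%), with adjusted p of 0.0624 for Myh1 and 0.276 for Myh2. With limma-voom and sample quality weights, 1348 genes (8.75%) were called, and Myh1 (1.14 higher, adjusted p = 0.0233) and Myh2 (1.55 higher, adjusted p = 0.0399) were among them. Over the 16 alternatives the adjusted p ran from 0.0233 to 0.840 for Myh1 and from 0.0399 to 0.883 for Myh2, and the log2 differences from 0.41 to 1.14 and from 0.57 to 1.55. The lowest differences came without the 4 libraries high in Prg4, which leave 2 injured placebo libraries.

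Other values moved with the same contrast. The 10 macrophage markers summed to 56.1 to 460 CPM in injured placebo and 27 to 56.5 CPM in injured inhibitor quadriceps. The highest sums were those of injured placebo 2 and 3, which are among the 4 libraries high in Prg4. The lowest injured placebo sum, 56.1 CPM, fell within the range with the inhibitor. Of these markers 10 of 10 had negative differences (median -2.63 against -0.02 over all genes). The 9 joint lining and cartilage markers summed to 20.1 to 388 CPM and 33.6 to 39.4 CPM in these groups. Their part in the difference of Myh1 and Myh2 was not tested.

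The Myh4 share in injured quadriceps was lower with the inhibitor than with placebo, with a difference of -7.54 points (exact permutation p = 0.0857, adjusted p = 0.581). Myh1 held 4.47 points more (p = 0.114, exact permutation), Myh2 2.80 points more (p = 0.171) and Myh7 0.27 points more (p = 0.771). Without the 4 libraries high in Prg4 the Myh4 difference was -3.93 points. On either scale the groups overlapped for all 4 members, while 6.42% of all tested genes had CPM that did not overlap between these groups.

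In healthy quadriceps, inhibitor minus placebo was -0.03 ± 0.25 for Myh4, 0.15 ± 0.27 for Myh1, 0.39 ± 0.48 for Myh2 and 0.94 ± 1.43 for Myh7 on the log2 scale (adjusted p = 0.9996 for each, edgeR). EdgeR called 0 genes (0.0%) and passed 514 (3.34%) at an unadjusted p under 0.05, and DESeq2 called 12 (0.0779%). The Myh4 share differed by -1.75 points (exact permutation p = 0.771, adjusted p = 0.857), and by 2.57 points the other way without the libraries high in Prg4. The difference of the injury effects between treatments (inhibitor minus placebo) was 0.08 ± 0.35 for Myh4, 0.66 ± 0.38 for Myh1, 0.68 ± 0.68 for Myh2 and -0.36 ± 2.01 for Myh7 (adjusted p = 0.998 for each, edgeR). For it edgeR called 0 genes (0.0%) and passed 423 (2.74%) at an unadjusted p under 0.05, and DESeq2 called 0. An inhibitor effect on Myh1 or Myh2 that differs between injured and healthy quadriceps was thus not shown. Each group of libraries enters several of these comparisons, which are therefore not independent.

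**Figure D3:**
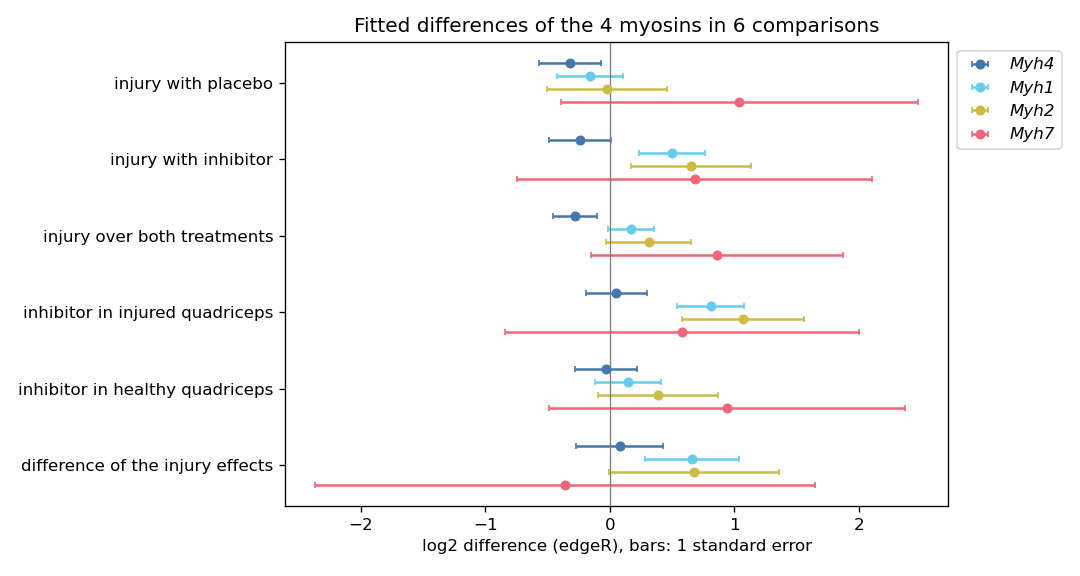
Log2 differences from edgeR (points, bars of 1 standard error) of the 4 myosins in 6 comparisons. Bars of Myh7 are the widest, at 1.01 to 2.01, and Myh1 and Myh2 stand farthest from 0, relative to their bars, with the inhibitor in injured quadriceps.

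Among the members, Myh1 and Myh2 varied together. Over the means of 8 animals Pearson's r of their log2 CPM was 0.931 (exact permutation p = 0.000967, adjusted p = 0.0058 over 6 pairs) and Spearman's rho 0.833 (p = 0.0154, adjusted p = 0.0923). Without the 2 animals farthest from the median r was 0.879. Myh4 ran against Myh2 (r -0.647, rho -0.714), without passing (exact permutation p = 0.0923 and 0.0576, adjusted p = 0.267 and 0.173). Myh2 and Myh7 gave r 0.597 and rho 0.548 (exact permutation p = 0.134 and 0.171), and r was -0.2 without the 2 farthest animals, so that relation rests on them. The other pairs were Myh4 with Myh1 (r -0.491, rho -0.333), Myh4 with Myh7 (r -0.489, rho -0.595) and Myh1 with Myh7 (r 0.411, rho 0.357), with exact permutation p of 0.132 to 0.428. Each treatment held 4 animals, under the 6 needed for a value within it. Reads shared between Myh1 and Myh2 would also tie their counts together, and that part was not tested.

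**Figure D4:**
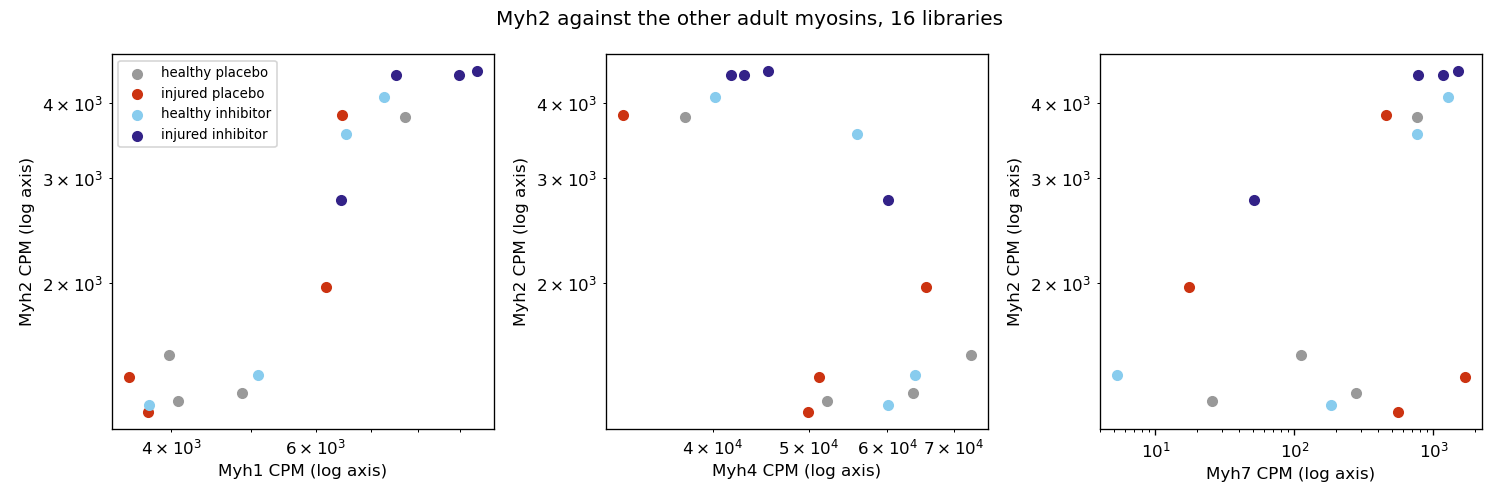
CPM of Myh2 against CPM of Myh1, Myh4 and Myh7 (log axes) in 16 libraries coloured by group. Myh2 climbs with Myh1, tends to be low where Myh4 is high, and is low in injured placebo 3 (1395 CPM), the library with the most Myh7 (1676 CPM).

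The genes most like each member were taken as the 4 highest Pearson r of log2(CPM + 0.5) over the 16 libraries among 10976 genes, as a description, since libraries share animals and groups. For Myh4 they included Mybpc2, the fast myosin-binding protein C (r 0.93), Atp8a1, a phospholipid flippase (0.923), and Kctd15 (0.916). Myh1 was most like Hadha, of mitochondrial fatty acid oxidation (0.917), the ATP synthase subunit gene Atp5a1 (0.902), the vessel growth factor Vegfa (0.898) and Ppargc1a, the coactivator PGC-1 alpha (0.896). Hadha (0.96) and Atp5a1 (0.948) also led for Myh2, followed by Got1, an aspartate aminotransferase, and Acadvl, an acyl-CoA dehydrogenase (both 0.942). The closest genes to Myh7 were the slow troponins Tnni1 (0.989), Tnnc1 (0.985) and Tnnt1 (0.978) and the slow light chain gene Myl3 (0.971). Tnni1 itself ran from 0.774 to 152 CPM.

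The 6 other sarcomeric myosins together, at 12.7 to 363 CPM, stayed below each of Myh4, Myh1 and Myh2 in every library. They were not always rarer than Myh7. In healthy inhibitor 2 Myh7 stood at 5.31 CPM, while these 6 summed to at least 13.4 CPM in every library of that group. Myh3, the embryonic chain, measured 2.99, 4.5, 2.21 and 14.8 CPM in healthy placebo quadriceps, against 13.5, 169, 280 and 2.98 CPM in injured placebo quadriceps. With the inhibitor it stayed between 1.07 and 9.65 CPM in both limbs. Its log2 difference was 4.10 ± 1.14 for injury with placebo (adjusted p = 0.641, edgeR) and -4.09 ± 1.14 for the inhibitor in injured quadriceps (adjusted p = 0.218, edgeR). Myh8, the perinatal chain next to Myh4, was 5.67, 37.8, 70.6 and 4.29 CPM in injured placebo quadriceps and 3.32 to 11.5 CPM elsewhere. The 2 libraries that carried both genes, injured placebo 2 and 3, are among the 4 high in Prg4; the other injured placebo libraries, 1 and 4, had 13.5 and 2.98 CPM of Myh3. Neither Myh13, the extraocular chain (0.89 to 7.92 CPM), nor Myh7b (1.53 to 12.8 CPM) passed in any comparison, as no gene of the table did with edgeR. Myh15 was not tested because of its low counts.

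Genes that build the rest of the fast and slow sarcomere leaned as Myh4 and Myh7 did. None was called in any comparison, as edgeR called no gene of the whole table. Of the fast light chain genes and kinases, Myl1, Mylpf, Mylk2 and Mylk4, 4 of 4 had negative differences for injury over both treatments (median -0.22). Mylk4 also had negative differences with the inhibitor in both limbs, -0.76 ± 0.22 in injured (adjusted p = 0.218, edgeR) and -0.72 ± 0.22 in healthy quadriceps (adjusted p = 0.9996, edgeR). Among 10 fast-fibre partners, 10 of 10 had negative differences for injury over both treatments (median -0.22 against 0.01 over all genes, of which 52.5% were positive). The 6 muscle identity genes, which are not all specific to fast fibres, had a median of -0.19 in the same comparison, with 4 of 6 negative and 2 of 6 lower at an unadjusted p under 0.05, which were Acta1 (-0.27 ± 0.10) and Ckm (-0.23 ± 0.11). The fast-fibre genes included the calcium pump gene Atp2a1 (-0.25 ± 0.12), Myoz1 (-0.22 ± 0.11), the fast actinin gene Actn3 (-0.23 ± 0.12) and the calcium buffer gene Pvalb (-0.26 ± 0.16). Of 11 slow-fibre partners 11 had positive differences (median 0.84), among them calsequestrin Casq2 (0.84 ± 0.44), Myom3 (0.57 ± 0.38), Myoz2 (0.66 ± 0.52) and the slow calcium pump gene Atp2a2 (0.87 ± 0.69). The slow light chain genes Myl2 (0.90 ± 0.62), Myl3 (0.72 ± 0.86) and Myl6b (0.47 ± 0.38) were positive too. None of the fast or slow sarcomere genes named here reached an unadjusted p of 0.05 in that comparison. The slow troponins Tnnt1 (198 CPM), Tnni1 (152 CPM) and Tnnc1 (211 CPM) each peaked in injured placebo 3, a library high in Prg4. That did not hold for every slow-fibre partner. Without that library the log2 difference of Myh7 in this comparison was 0.36, against 0.86 with it. The slow-fibre partners were not examined without it. Genes of 1 fibre type vary together across muscle pieces, so such counts are not separate observations.

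A list of 8 genes for myosin folding and the thick filament also held the ubiquitin ligase gene Trim63. Of the 8, 7 had negative differences for injury over both treatments (median -0.12), while 52.5% of all genes were positive. They included Trim54 at -0.16 ± 0.10, the M-band gene Myom1 at -0.14 ± 0.09, the myosin chaperone gene Unc45b at -0.13 ± 0.09 and Trim63 at -0.16 ± 0.15. With the inhibitor in injured quadriceps 5 of the 8 had positive differences (median 0.12), against 46.9% of all genes. Of the 8, 1 had an unadjusted p under 0.05 (edgeR): the M-band gene Myom2, named after its values were seen, at 0.39 ± 0.13 (adjusted p = 0.229, edgeR). Trim63 differed by -0.40 ± 0.21 there (adjusted p = 0.384, edgeR). Among 15 regulators of myosin choice, 10 had negative differences for injury over both treatments, with 2310065F04Rik at -0.37 ± 0.13 (adjusted p = 0.819, edgeR), Eya1 at -0.21 ± 0.10, Thra, a thyroid hormone receptor gene, at -0.15 ± 0.09 and Sox6, a repressor of slow genes, at -0.14 ± 0.08. With the inhibitor in injured quadriceps 14 of the 15 had positive differences (median 0.24 against -0.02 over all genes), and 6 had an unadjusted p under 0.05, against 5.82% of all genes in that direction. None of the 6 passed adjustment. Vgll2, a cofactor of TEAD factors that was singled out after its values were seen, was 66.4, 66.3, 64.5 and 89.4 CPM in injured placebo and 161, 128, 126 and 121 CPM in injured inhibitor quadriceps. In healthy quadriceps Vgll2 was 61.4, 74.3, 64.8 and 76.4 CPM with placebo and 150, 95.9, 147 and 99.7 CPM with inhibitor. Those groups did not overlap in either limb, which held for 6.42% of all tested genes in injured and 2.3% in healthy quadriceps. The log2 differences of Vgll2 were 1.02 ± 0.17 (adjusted p = 0.1, edgeR) and 0.84 ± 0.17 (adjusted p = 0.555, edgeR). Ppargc1a, named above for its likeness to Myh1, differed by 0.54 ± 0.17 with the inhibitor in injured quadriceps (adjusted p = 0.228, edgeR).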

How the data were processed

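The 16 libraries held total RNA of mouse quadriceps. The authors deposited expected counts per Ensembl gene, not normalized, for 17370 genes. The submitters' processing notes name STAR, Partek and DESeq2, and the builds GRCm38 and mm10, without saying what each was used for. About 33.8% of values carried decimals (24.2% lay over 0.01 from a whole number), so values were rounded. Symbols and exon lengths came from GENCODE M21 by Ensembl ID (32 IDs without a symbol) and promoters from RefSeq.

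EdgeR 4.0.16 (R 4.3.3) was run after filterByExpr at a minimum count of 10, which took out 1959 genes. It used TMM scaling and fitted 4 group means to 16 libraries with the robust quasi-likelihood method (12 residual degrees of freedom). Tests were two-sided, and p-values were adjusted by Benjamini-Hochberg over 15411 genes, with a threshold of 0.05. The labels call the libraries biological replicates, and the p-values measure the spread between them. Shares were compared by exact permutation, with adjustment over 24 comparisons. Levels use the library total and log2 differences use TMM, so signs can differ where differences are near 0. Scripts were tested on simulated data. Alternatives were DESeq2 size factors, no low-count filter, DESeq2 1.42.0, limma 3.58.1 voom with quality weights or with limbs of an animal correlated, a fit to the compared libraries alone, a replicate block, each library left out, shares per length, with Myh3 and Myh8 added, from unrounded counts or as log2 ratios, levels on TMM-scaled or non-mitochondrial totals and, added after seeing the data, leaving out the 4 libraries highest in Prg4.

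Limbs of an animal were joined by library names. To check this pairing, deviations from group means were correlated between the limbs over genes: r was 0.23, -0.044, -0.011 and -0.097 in the inhibitor-treated animals and 0.47, -0.18, -0.11 and -0.53 in the placebo-treated ones. The replicate numbers that join animals of different treatments mark nothing shared in the labels.

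The members and lists were chosen with earlier results of these data known. Named genes are the 4 members, the 4 genes most like each (mean log2 CPM of at least 1, no predicted genes), and, of each list used, all members of lists of up to 6 or otherwise the 4 with the smallest p for injury over both treatments; of the lists of other cell types only sums and counts are given. One gene that this rule names is not reported here. Tendon, adipocyte, Schwann cell and endothelial markers held 0 called genes in every comparison. EdgeR called 0 genes (0.0%) of the whole table in each, so this count says nothing about those cell types. Plots used matplotlib 3.10.9 (Python 3.11.15).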

Additional observations from a re-analysis of the deposited data

Results flagged for a closer look

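Within groups of 4, some libraries stood apart from the other 3 by Dixon's test at 95%, applied to the CPM and share of each member in each group, 32 sets of values. Chance flags about 1 in 20 such sets, and the sets of 1 library are not independent. Healthy placebo 2 had a Myh4 share of 75.4%, against 90.7 to 92.9% in the rest of its group, with Myh2 at 3793 CPM and a Myh2 share of 7.62%. Injured placebo 1 had a Myh4 share of 75.2% and a Myh2 share of 8.83%, against at most 2.67% in the rest of its group. Injured inhibitor 4 stood apart the other way, with a Myh4 share of 86.7%, Myh2 at 2755 CPM and a Myh2 share of 3.98%, against at least 7.43% in its group. No Myh1 or Myh7 value stood apart by this test.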

How the results depend on the processing

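With 4 against 4 no exact p can fall under 0.0286, and a single share comparison at that p could not pass adjustment over 24 comparisons alone. Myh7 varied so much within groups that only very large differences were detectable at this group size, and depth was not the limit. Of the 184 log2 differences of the members under alternatives other than leaving out single libraries, 172 kept their direction and their side of the threshold, and of the 136 differences of shares 127 did. In no case below was the cause tested, beyond the fewer libraries compared.

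Genes called by edgeR numbered 0 in each comparison. DESeq2 called 2 for injury with placebo, 1 for injury with inhibitor, 248 for the inhibitor in injured and 12 in healthy quadriceps. For the inhibitor in injured quadriceps, limma-voom with quality weights called 1348, and the replicate-number block 1; the animal as a block (6 residual degrees of freedom) called 0 in the injury comparisons. With same-animal or same-numbered pairing, the exact sign-flip permutation p of the Myh4 share was 0.625 for injury with placebo, 0.125 for injury with inhibitor, 0.125 for the inhibitor in injured and 1 in healthy quadriceps, and the block changed no other call. The animal numbers gave no correlation above 0.1 in 6 of 8 pairs.

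Without the 4 libraries highest in Prg4, signs reversed as follows. Log2 differences became 0.18 for Myh1, 0.30 for Myh2 and -0.48 for Myh7 (injury with placebo), -0.014 for Myh4 (inhibitor in injured), 0.12 for Myh4, -0.038 for Myh1 and -0.087 for Myh2 (inhibitor in healthy), and -0.14 for Myh4 and 1.96 for Myh7 (difference of injury effects). Shares became -0.038 points for Myh7 (injury with placebo), 2.57 for Myh4, -1.62 for Myh1, -0.85 for Myh2 and -0.10 for Myh7 (inhibitor in healthy), and 5.91 for Myh4, -2.56 for Myh1 and -3.06 for Myh2 (difference). For that difference Myh7 also reversed to 0.80 with limma's correlation within animals, and its share to 0.57 as a log2 ratio. Without mitochondrially encoded genes in the total, the means of every group rose. Injured inhibitor means moved to 56314 CPM for Myh4 and 9593 for Myh1, and healthy placebo means to 65599 and 6090 CPM.

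Leaving out 1 library at a time, called genes ranged from 0 to 3 for injury with placebo (3 without injured placebo 4), 0 to 39 for the inhibitor in injured (39 without injured placebo 4) and 0 to 1 in healthy quadriceps (1 without healthy placebo 1), and stayed 0 otherwise.
Ranges of log2 differences that crossed 0 were, for injury with placebo, -0.34 to 0.083 for Myh1 and -0.49 to 0.48 for Myh2, for the inhibitor -0.093 to 0.29 (injured) and -0.19 to 0.16 (healthy) for Myh4, and for the difference -0.10 to 0.32 for Myh4 and -1.46 to 0.64 for Myh7.
Ranges of shares that crossed 0 were, for injury with placebo, -5.76 to 1.76 for Myh4, -1.56 to 2.68 for Myh1 and -0.98 to 2.03 for Myh2, for the inhibitor in healthy quadriceps -5.76 to 1.45 for Myh4, -1.06 to 2.76 for Myh1, -0.33 to 2.24 for Myh2 and -0.055 to 0.77 for Myh7, for the inhibitor in injured quadriceps -0.14 to 0.82 for Myh7, and for the difference -0.046 to 3.97 for Myh2 and -0.68 to 0.52 for Myh7.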
